A study of Mus musculus with 2 samples.

Results

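The splicing regulators described here are the annotated protein-coding genes of the SR protein, hnRNP, RBM, MBNL, CELF, RBFOX, PTBP, TRA2, RBPMS and quaking (Qk) families, taken by gene symbol. The annotation holds 94 such genes, of which 79 had reads in heart, 78 in each library and 77 in both, out of 15031 annotated genes with reads. The heart came from female B6CASTF1/J mice, a hybrid strain, at 18 to 20 months, and its RNA was sequenced as long reads, each of which can follow a transcript through all of its splice junctions. The series held 1 group with 2 libraries, replicate 1 and replicate 2, each made from 2 µg of RNA. No treatment, transgene or second group was part of the series. Per the labels the libraries come from separate biological samples but share 1 donor entry, so the SD over the libraries (n = 2, given after ± throughout) measures the spread between 2 samples, which may be technical. The questions the data can answer are which regulators the aged heart expressed, in which of their own splice forms, and whether the libraries differed beyond counting error.

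Many of these proteins bind pre-mRNA and help to decide which exons and splice sites the spliceosome uses. Since members were taken by symbol, the set also holds genes with other roles, such as Rbm7 of the nuclear exosome targeting complex. SR proteins mostly favour inclusion when bound in exons, hnRNPs often favour skipping, and MBNL, CELF, RBFOX, QKI, RBM20 and RBM24 direct splicing programs of muscle and heart, among them those of titin and other sarcomere genes. Many of the genes are themselves alternatively spliced, and several are known to lower their own output through an exon or retained intron that puts a premature stop codon in the mRNA, which nonsense-mediated decay then removes.

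Replicate 1 held 630211 mouse reads and replicate 2 held 664319, and levels are given in CPM, reads per 1000000 after TMM scaling of the library sizes. A single read was worth 1.61 CPM in replicate 1, against 1.48 CPM in replicate 2. Each long read was counted once whatever its length, so CPM were not divided by transcript length, and an under-count of long transcripts was not tested for. Whether several reads came from 1 RNA molecule was not tested either. Markers of heart muscle cells led both libraries, at a summed 46948 CPM in replicate 1 and 43006 CPM in replicate 2 over 8 genes. Markers of other cells differed between the libraries: 5 erythroid genes summed to 30391 CPM in replicate 1 and 11784 CPM in replicate 2, 4 atrial genes to 1806 and 4318 CPM, 5 fat cell genes to 94.9 and 1027 CPM, and 4 airway genes to 0 and 597 CPM in the same order. Their part in the differences between libraries given below was not tested. The neuron markers Snap25, Rbfox3, Tubb3 and Syt1 had no reads in either library. In tissue RNA, fewer cells of a type and less RNA per cell cannot be told apart. Ranges in brackets are exact 95% binomial (Clopper-Pearson) intervals, which cover counting error only.

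Short alternative segments of 7 regulators carry much of what follows, and their sequences are shown first so that the forms counted below can be recognised. All are sense-strand mRNA sequence, 5′ to 3′, of GENCODE M21 transcripts on mm10. Capitals mark the alternative segment, and the lower-case letters on each side are the neighbouring bases of the transcript.
Hnrnpa2b1 36-base exon (chr6:51467391-51467426, minus strand, coding): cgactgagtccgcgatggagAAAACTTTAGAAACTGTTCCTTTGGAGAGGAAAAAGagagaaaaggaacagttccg
Hnrnpd 57-base exon (chr5:99976534-99976590, minus strand, coding): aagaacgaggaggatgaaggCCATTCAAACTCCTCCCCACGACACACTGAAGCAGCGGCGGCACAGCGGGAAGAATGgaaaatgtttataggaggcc
Hnrnpd 147-base exon (chr5:99963731-99963877, minus strand, coding): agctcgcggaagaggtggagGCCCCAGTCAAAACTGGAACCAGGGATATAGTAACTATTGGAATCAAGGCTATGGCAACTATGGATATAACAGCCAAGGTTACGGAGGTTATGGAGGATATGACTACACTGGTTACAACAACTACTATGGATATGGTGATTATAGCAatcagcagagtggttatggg
Qk 24-base segment (chr17:10216436-10216459, minus strand, coding): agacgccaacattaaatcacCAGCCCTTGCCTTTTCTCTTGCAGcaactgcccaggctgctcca
Mbnl1 54-base exon (chr3:60614683-60614736, plus strand, coding): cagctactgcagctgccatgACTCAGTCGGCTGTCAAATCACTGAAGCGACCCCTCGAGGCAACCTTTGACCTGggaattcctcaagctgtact
Mbnl2 54-base exon (chr14:120395712-120395765, plus strand, coding): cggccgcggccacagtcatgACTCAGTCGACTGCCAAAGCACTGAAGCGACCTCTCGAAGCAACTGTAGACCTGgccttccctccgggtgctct
Rbfox2 43-base exon (chr15:77091812-77091854, minus strand, coding): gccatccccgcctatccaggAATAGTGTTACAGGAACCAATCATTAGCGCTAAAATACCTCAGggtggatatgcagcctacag
Srsf7 36-base exon (chr17:80202169-80202204, minus strand, coding): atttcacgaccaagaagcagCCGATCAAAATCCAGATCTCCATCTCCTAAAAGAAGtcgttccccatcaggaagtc
The exons of Mbnl1 and Mbnl2 are paralogous and share 46 of 54 bases. Apart from the 43-base exon of Rbfox2, these segments are multiples of 3 bases long.

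The 79 genes with reads held 2508 reads in replicate 1 and 2688 in replicate 2, which made 4036 CPM in replicate 1, against 3990 CPM in replicate 2, or 4013 ± 32.5 CPM. The hnRNPs took 53.5% of these reads, with 20 of 20 genes detected and 2146 ± 46.8 CPM. The RBM genes summed to 954 ± 0.128 CPM over 35 detected genes of 43. The SR proteins summed to 415 ± 57.5 CPM over 10 of 11 genes, Qk alone made 192 ± 6.57 CPM, and the other families were lower: MBNL had 130 ± 3.04 CPM, RBPMS 81.2 ± 5.73 CPM, RBFOX 38.6 ± 0.0196 CPM, CELF 27.8 ± 0.598 CPM, PTBP 21.1 ± 8.85 CPM and TRA2 7.67 ± 1.75 CPM. The reads were concentrated in few genes, since 1 gene held 24.4% of them, 5 genes 43.2% and 10 genes 57.4%. Only 10 members reached 100 reads over both libraries, 27 reached 50 and 62 reached 10, while 17 had 1 to 9 reads.

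**Figure D1:**
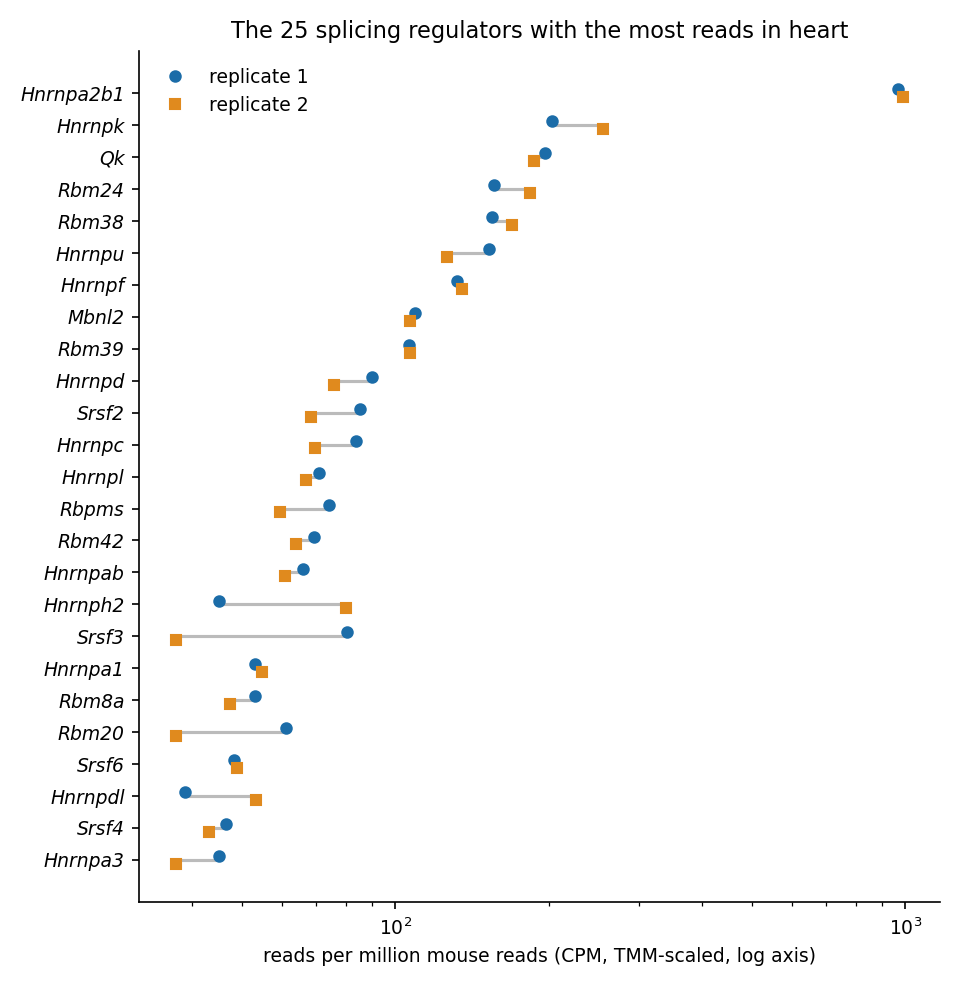
Level of the 25 splicing regulators with the highest mean, 1 row per gene, in CPM on a log axis, with replicate 1 as circles, replicate 2 as squares and a grey line joining them. Hnrnpa2b1 stands apart near 979 CPM, and most pairs of points lie close together, with Srsf3 and Hnrnph2 among the widest gaps.

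Hnrnpa2b1, which encodes the abundant hnRNP A2 and B1 proteins (chr6:51460932-51469884, minus strand), had 601 reads in replicate 1 and 668 in replicate 2, or 979 ± 17.3 CPM. No other member came near it, the next being Hnrnpk (a poly(C)-binding hnRNP) with 126 reads in replicate 1 and 172 in replicate 2, or 229 ± 37.2 CPM. Hnrnpu, a nuclear matrix hnRNP, had 95 and 85 reads, and Hnrnpf, a binder of G-rich RNA, had 82 and 91. Further hnRNPs among the 25 most abundant members were Hnrnpd, Hnrnpc, Hnrnpl, Hnrnpab, Hnrnph2, Hnrnpa1, Hnrnpdl and Hnrnpa3, between 82.9 ± 10.2 CPM for Hnrnpd and 41.1 ± 5.62 CPM for Hnrnpa3. Hnrnph1, a paralog of Hnrnph2, was lower in these reads, with 7 in replicate 1 and 16 in replicate 2.

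The next most abundant members after Hnrnpk included Qk, Rbm24 and Rbm38, and Rbm20 lay lower. Qk, a STAR-family RNA-binding protein of muscle and glia (chr17:10202601-10319854, minus strand), had 122 reads in replicate 1 and 126 in replicate 2. Rbm24, a muscle splicing factor needed for heart development (chr13:46418434-46431095, plus strand), had 97 and 124 reads, or 170 ± 19.8 CPM. Rbm38, a close paralog of Rbm24, had 96 and 114 reads, or 162 ± 10.4 CPM. Rbm20, the repressor of titin exons whose mutations cause dilated cardiomyopathy in humans (chr19:53660995-53867080, plus strand), had 38 reads in replicate 1 and 25 in replicate 2, or 49.1 ± 17.0 CPM. Its level lay below that of Rbm24 and Rbm38 in each library.

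Within families the balance between paralogs was uneven. Mbnl2 had 68 reads in replicate 1 and 72 in replicate 2, against 14 and 14 for Mbnl1 and none for Mbnl3. Rbpms had 46 and 40 reads, against 7 and 12 for Rbpms2. Among the RBFOX proteins, which bind UGCAUG, Rbfox2 had 21 and 19 reads and Rbfox1 3 and 7, while Rbfox3, the neuronal nuclear antigen NeuN, had none. Celf1 had 8 and 11 reads and Celf2 9 and 8, and the mostly neural Celf3, Celf4, Celf5 and Celf6 had none. Single-exon models held 26 of the 40 Rbfox2 reads and 12 of the 19 Celf1 reads, so most reads of these genes showed no splice junction. In Mbnl1 it was 10 of 28 reads and in Mbnl2 5 of 140. Of the polypyrimidine tract binding proteins, Ptbp1 had 7 and 8 reads, Ptbp2, the paralog known from neurons, 8 and 1, and Ptbp3 2 and 1. Tra2a and Tra2b, relatives of fly transformer-2, were rare, Tra2a with 2 reads in each library and Tra2b with 2 and 4.

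Among the SR proteins Srsf2 led, with 53 reads in replicate 1 and 46 in replicate 2. Srsf3 followed with 50 and 25, Srsf6 with 30 and 33, Srsf4 with 29 and 29, Srsf5 with 26 and 25, Srsf10 with 24 and 27, Srsf9 with 22 and 24, Srsf7 with 27 and 17, Srsf1, the founding member of the family, with 12 and 19, and Srsf11 with 10 and 7. Srsf12 had no reads. Other RBM genes of note by level were Rbm39, a U2AF-related factor (66 reads in replicate 1 and 72 in replicate 2), Rbm42 (43 and 43) and Rbm8a, the Y14 subunit of the exon junction complex (33 and 32). Rbm3, a cold-induced RNA-binding protein, had 9 and 16 reads and Rbm5, a regulator of splice site choice in apoptosis genes, had 15 and 11. The other members with no listed read in either library were Rbm11, Rbm27, Rbm31y, Rbm41, Rbm44, Rbm47, Rbm8a2 and Rbmxl2. The floor of 3 reads leaves room for a low level of any of the genes without reads.

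Whether the libraries differed was tested gene by gene against counting error alone, with an exact two-sided binomial test of each gene's reads against the scaled library sizes, Benjamini-Hochberg adjusted over the 7545 annotated genes with at least 10 reads. Of the 62 members tested 0 were called at 0.05, beside 2.07% of all genes tested (0.861% higher in replicate 1 and 1.21% higher in replicate 2). On the log2 scale the ratio of replicate 1 to replicate 2 had a median of 0.05 over the members and -0.00 over all genes. At an unadjusted p under 0.05 there were 2 members and 735 genes in all. With edgeR's exact test with a common dispersion 0 members and 49 genes in all were called, and 1 member had an unadjusted p under 0.05. That dispersion was estimated from the spread between these same 2 libraries, which holds down the number of calls, so it is no independent check. Both tests compare 2 libraries of 1 group, not conditions.

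The 2 members were Srsf3 and Hnrnph2. Srsf3, the smallest SR protein, had 80.5 CPM in replicate 1 against 37.1 CPM in replicate 2, which is 2.17 times as much (1.32 to 3.66; exact binomial p = 0.00162, adjusted p = 0.0691), and it was called only when genes under 50 reads were left out (adjusted p = 0.0340). Hnrnph2 had 45.1 CPM in replicate 1 against 80.2 CPM in replicate 2, at a ratio of 0.562 (0.343 to 0.903; exact binomial p = 0.0146, adjusted p = 0.278). Rbm20 had a ratio of 1.65 (0.969 to 2.85; exact binomial adjusted p = 0.535), so the depth leaves both equality and a marked difference possible.

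Genes that work with these regulators were read from 4 lists. All 41 core spliceosome genes had reads, at a summed 1590 ± 50.3 CPM, and 0 of 40 tested differed between the libraries in either direction. The most abundant were Sf3b2 of the U2 particle (113 reads in replicate 1 and 112 in replicate 2) and the Sm proteins Snrpb (93 and 102) and Snrpd2 (89 and 69). Of 12 genes for kinases and phosphatases that act on SR proteins, 657 ± 1.47 CPM in sum, 0 of 12 differed, and the catalytic subunits of protein phosphatase 1 led, Ppp1ca with 151 and 152 reads, Ppp1cb with 116 and 122 and Ppp1cc with 35 and 46. The exon junction complex and nonsense-mediated decay list summed to 252 ± 3.11 CPM over 15 genes, with 0 of 10 called and Eif4a3 (48 and 36 reads), Rnps1 (23 and 30) and Upf1 (14 and 23) on top. The list of 36 other regulators summed to 1985 ± 106 CPM, led by the Y-box protein Ybx1 (283 and 299 reads), the helicase Ddx5 (148 and 125) and the poly(C)-binding Pcbp2 (88 and 104), while the epithelial Esrp1 and Esrp2 had no reads. The median log2 ratio was 0.12 in the core spliceosome list, -0.00 in the kinase and phosphatase list, -0.13 in the list of other regulators and -0.20 in the decay list.

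In the list of other regulators 1 gene of the 27 tested was called, beside the 2.07% of all genes tested, so the list's count is near the background, as 0 called of 10, 12 or 40 tested is in the other lists. The gene was Cirbp, the cold-inducible RNA-binding protein, which had 44 reads in replicate 1 and 121 in replicate 2, a ratio of 0.394 (0.273 to 0.561; exact binomial adjusted p = 3.99e-06). Rbm3, the other well-known cold-induced gene, had 14.5 CPM in replicate 1 against 23.8 CPM in replicate 2, at a ratio of 0.610 (0.238 to 1.47) that was not called.

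Fewer reads of the splicing regulators followed a known transcript than did reads of heart genes at large, and more followed new chains of junctions. TALON, the program named in the deposited models, sorts models into known transcripts, incomplete matches that cover part of a known chain of junctions, new combinations of known splice sites, models with a new splice site, and genomic models that do not follow the splice sites. Known transcripts took 44.5% ± 1.34 of the members' reads, beside 69.3% ± 0.937 of the reads of all annotated genes. New combinations took 10.5% ± 0.900 of the members' reads and 2.75% ± 0.0124 of those of all genes, and new splice sites 5.93% ± 0.291 and 2.26% ± 0.0547. Incomplete matches took 27.1% ± 1.12 and 16.9% ± 1.74. These shares are descriptive, and Hnrnpa2b1 weighs on them: without it known transcripts took 54.6% ± 1.43, new combinations 13.6% ± 1.35, new sites 7.09% ± 0.360 and incomplete matches 15.2% ± 0.640 of the members' reads. Hnrnpk, Qk and Mbnl2 weigh on the new chains: without these 3 genes new combinations took 4.63% ± 0.287, new sites 2.88% ± 0.0512 and known transcripts 50.4% ± 1.02. Without all 4 genes known transcripts took 64.9% ± 0.710 of the members' reads, new combinations 6.10% ± 0.541, new sites 3.09% ± 0.0795 and incomplete matches 17.9% ± 0.630. All classes are the deposited labels. The largest Qk and Hnrnpk models labelled as new combinations, with 53 and 70 reads, each hold 1 unannotated junction. In these genes the split between new combinations and new sites is therefore not sharp, and new sites may be under-counted.

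**Figure D2:**
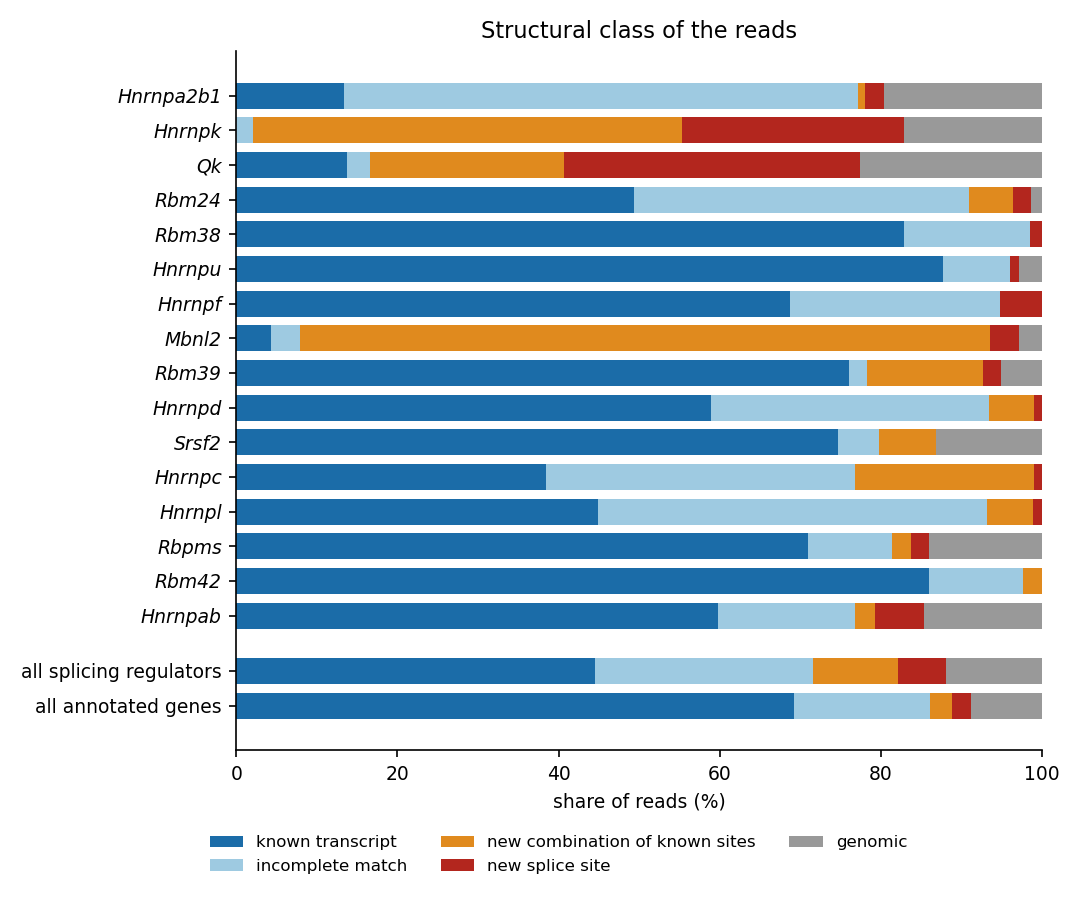
Share of reads (%) in each structural class for the 16 most abundant splicing regulators, over both libraries pooled, and below them the mean of the 2 libraries for all splicing regulators and for all annotated genes. Hnrnpk, Qk and Mbnl2 are mostly new combinations or new splice sites, Hnrnpa2b1 mostly incomplete matches, and Hnrnpu and Rbm42 mostly known transcripts.

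The members' reads were also spread over more forms. In the 38 members with at least 10 reads in each library, genomic models left out, the most abundant model held a median of 49.3% of the reads, beside 80.0% over the 4223 genes that met the same filter. It held more than 50% in 18 of 38 members and in 3467 of 4223 genes. Depth was similar in these sets, with a median of 66 reads per member and 62 per gene, and the annotation lists a median of 7 transcripts per member and 5 per gene. The leading model was a known transcript in 30 members (78.9%, beside 88.6% of all genes), an incomplete match in Hnrnpa2b1, Hnrnpc, Hnrnpf, Rbm10 and Rbm20, and a new-splice model in Hnrnpk, Mbnl2 and Qk. By Fisher's exact test the share of the leading model differed between the libraries in 0 of 38 members, beside 1.73% of all genes tested. At an unadjusted p under 0.05 there were 3 members, beside 287 of the 4223 genes.

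Some regulators were nearly uniform. Hnrnpu-201, a protein-coding transcript of 14 exons and 7640 bases, took 82 of 95 Hnrnpu reads in replicate 1 and 76 of 85 in replicate 2. Srsf6-203 took 28 of 30 and 28 of 33 Srsf6 reads, and Srsf3-202 took 41 of 50 and 20 of 25 Srsf3 reads.

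Hnrnpa2b1 reads were mostly short. Models of 2 or 3 exons took 363 reads in replicate 1 and 418 in replicate 2, single-exon models 123 and 127, and models of 8 or more exons 96 and 105, so that the last made 15.8% of the gene's 1269 reads. The leading model was an incomplete match of 2 exons and 578 bases at chr6:51462760-51463493, with 264 reads in replicate 1 and 262 in replicate 2, in the 3′ part of the gene. The full-length Hnrnpa2b1-204, of 11 exons, had 53 and 55 reads. Statements on exons in the 5′ part of Hnrnpa2b1 therefore rest on about these 201 reads and not on the gene's total. Rbm24 showed a similar pattern, with 44 and 62 reads on Rbm24-201 and 38 and 51 on a single-exon model of 2142 bases that ends at the same position. In Rbm20 an incomplete match of its last 4 exons (10 and 10 reads) outnumbered the complete Rbm20-203 of 14 exons (3 and 2 reads). All Rbm20 models of 8 or more exons together took 9 and 8 reads, so long reads were less rare there than in Hnrnpa2b1. Whether the short models of these genes are whole short transcripts or fragments of longer ones was not tested.

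Qk used an acceptor that the annotation lacks in most of its reads. At the intron before the 24-base segment shown above, the annotated acceptor keeps the segment, and the unannotated acceptor (intron chr17:10216436-10217715 in place of chr17:10216460-10217715, on the minus strand) leaves it out. The unannotated acceptor was used by 78 of 95 reads in replicate 1 (82.1%, 72.9 to 89.2) and 75 of 93 in replicate 2 (80.6%, 71.2 to 88.1). Both libraries thus gave nearly the same share, 81.4% of 188 reads together. The segment ends in AG, the letters that close an intron, and its loss shortens the annotated 341 codons to 333.

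The same reads showed which end of the quaking protein they encode. QKI-5, the nuclear form, ends in the last exon of Qk-204 (annotated at 341 codons), QKI-6 in that of Qk-206 (319 codons) and QKI-7 in that of Qk-201 (325 codons). The 341-codon end had 57 reads in replicate 1 and 55 in replicate 2, or 59.9% of 187 reads (52.5 to 67.0). The 319-codon end had 33 and 34 reads, 35.8% (29.0 to 43.2), and the 325-codon end 5 and 3 reads, 4.28% (1.86 to 8.26). The order was the same in each library. The 24 bases were left out in 79.3% of reads with the first end (88 of 111), 83.6% with the second (56 of 67) and 7 of 8 with the third, and the intervals of these shares overlap.

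**Figure D3:**
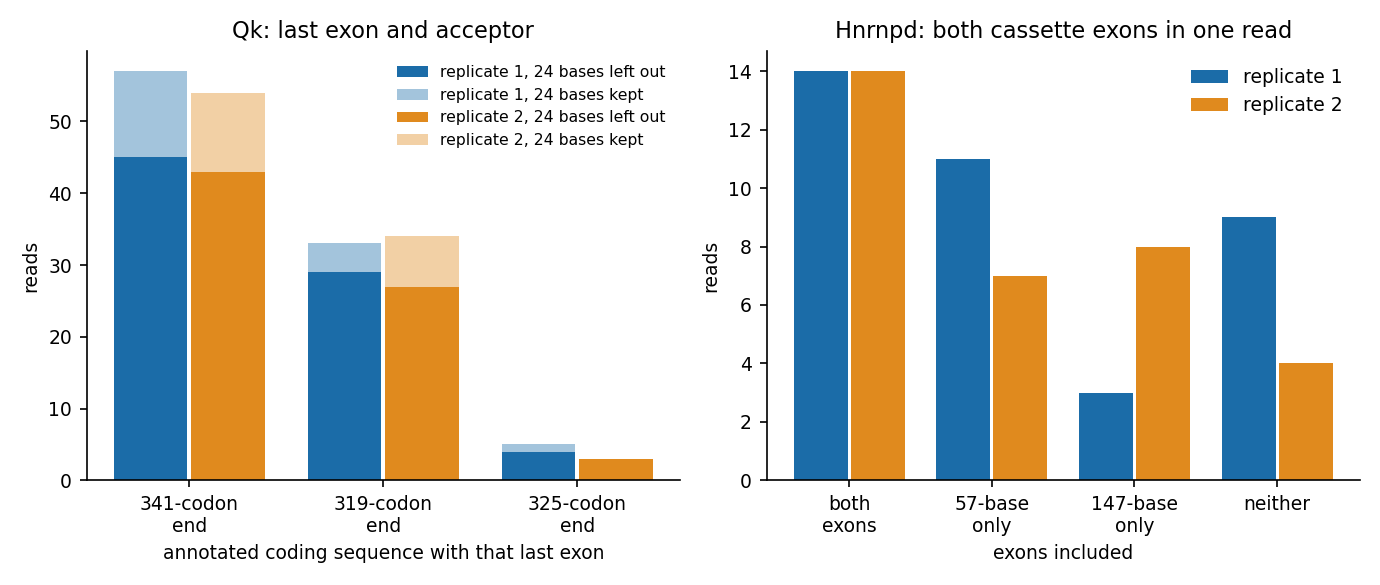
Left, Qk reads by last exon, with the part of each bar that leaves out the 24-base segment in full colour and the part that keeps it in pale colour. Right, Hnrnpd reads that cover both cassette exons, by which of the 2 exons they include. In each pair of bars replicate 1 is on the left, and most Qk reads leave out the segment at every last exon.

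In Hnrnpk 0 reads were assigned to a known transcript, because nearly every spliced read used 1 unannotated junction. Of the spliced reads that reach the same downstream exon, 103 of 105 in replicate 1 (98.1%, 93.3 to 99.8) and 137 of 142 in replicate 2 (96.5%, 92.0 to 98.9) used the intron chr13:58393775-58394059 (minus strand). Annotated transcripts have a 16-base exon in this place, and only 1 read in replicate 1 and 0 in replicate 2 used the intron that follows it. The unannotated junction in turn lengthens the exon before by 16 bases, so that both routes give mRNA of the same length. Both are shown with their neighbouring mRNA or intron bases, the first as in Hnrnpk-201 and the second as in the retained-intron transcript Hnrnpk-206.
Hnrnpk 16-base exon (chr13:58393853-58393868, minus strand): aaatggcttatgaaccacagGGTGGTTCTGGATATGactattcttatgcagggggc
Hnrnpk extension (chr13:58394060-58394075, minus strand): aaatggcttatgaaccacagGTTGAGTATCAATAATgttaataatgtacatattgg
The capitals are identical at 8 of 16 positions, and the unannotated intron begins with GT and ends with AG, as the annotated introns do. Equal length does not mean equal coding sequence. Read in codons from the first atg of the lower-case bases, the extension reaches a TAA stop codon and the 16-base exon does not. The reading frame and the protein were not tested. The deposited files hold counts and models but no read sequence, so which of the 2 stretches of 16 bases the reads carried was not tested. The read total of Hnrnpk is the same in either case.

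Hnrnpk and Qk held 65.5% of all reads over unannotated junctions of the splicing regulators. Such junctions made 2.19% (1.95 to 2.45) of 13199 junction passages in replicate 1 and 2.39% (2.14 to 2.66) of 13977 in replicate 2. Of 984 distinct junctions 141 were unannotated, 26 of these were seen in both libraries and 3 had at least 10 reads. New-splice models found in both libraries numbered 47, over 26 genes and 625 reads.

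Mbnl2, which encodes a muscleblind protein that binds YGCY sequences, came almost wholly from 1 such model. A chain of 7 exons and 4403 bases, a new combination of annotated sites, took 57 of 68 reads in replicate 1 and 60 of 72 in replicate 2, or 83.6% of the gene's reads. It lacks the 54-base exon shown above, which in muscleblind proteins carries part of the nuclear localisation signal. That exon was included in 0 of 63 reads in replicate 1 and 2 of 68 in replicate 2, 1.53% together (0.185 to 5.41). The 95-base exon of Mbnl2 was included in 3 of 63 and 2 of 70 reads, 3.76% (1.23 to 8.56). Mbnl1 was read less often but its paralogous 54-base exon was likewise included in 0 of 3 and 0 of 8 reads, while its 95-base exon was included in 4 of 9 and 2 of 6 and its 36-base exon in 0 of 9 and 2 of 8. Other members with a new-splice model in both libraries included Rbm24, where a chain of 5 exons with a 113-base exon had 7 reads in replicate 1 and 5 in replicate 2.

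Cassette exons, those that some reads include and others skip, were counted over all models except the genomic class. With at least 10 informative reads, at least 3 reads of the rarer form and a rarer form of at least 10%, 26 exons in 19 members qualified, out of 54 members with at least 10 spliced reads (35.2%). Over all annotated genes it was 1084 exons in 812 genes of 6205 (13.1%), with a median of 43 spliced reads per member and 34 per gene. Splice-site variants of 1 exon count as separate exons, here and in the test below. Among the 26 are such variants in Hnrnpa2b1 (136 and 73 bases) and in Hnrnpr (169 and 166 bases). The inclusion share of each variant leaves out the reads of the other. The length was a multiple of 3 in 14 of the 26 exons (53.8%), beside 58.9% in all genes. Of 46 member exons with at least 10 informative reads in each library 0 differed between the libraries by Fisher's exact test, beside 0.0295% of all 3392 exons tested. At an unadjusted p under 0.05 there were 2 member exons, beside 48 of the 3392. This test sets no minimum for the rarer form. Exons with 1 read of it over both libraries, such as a 93-base exon of Mbnl2, could not be called.

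**Figure D4:**
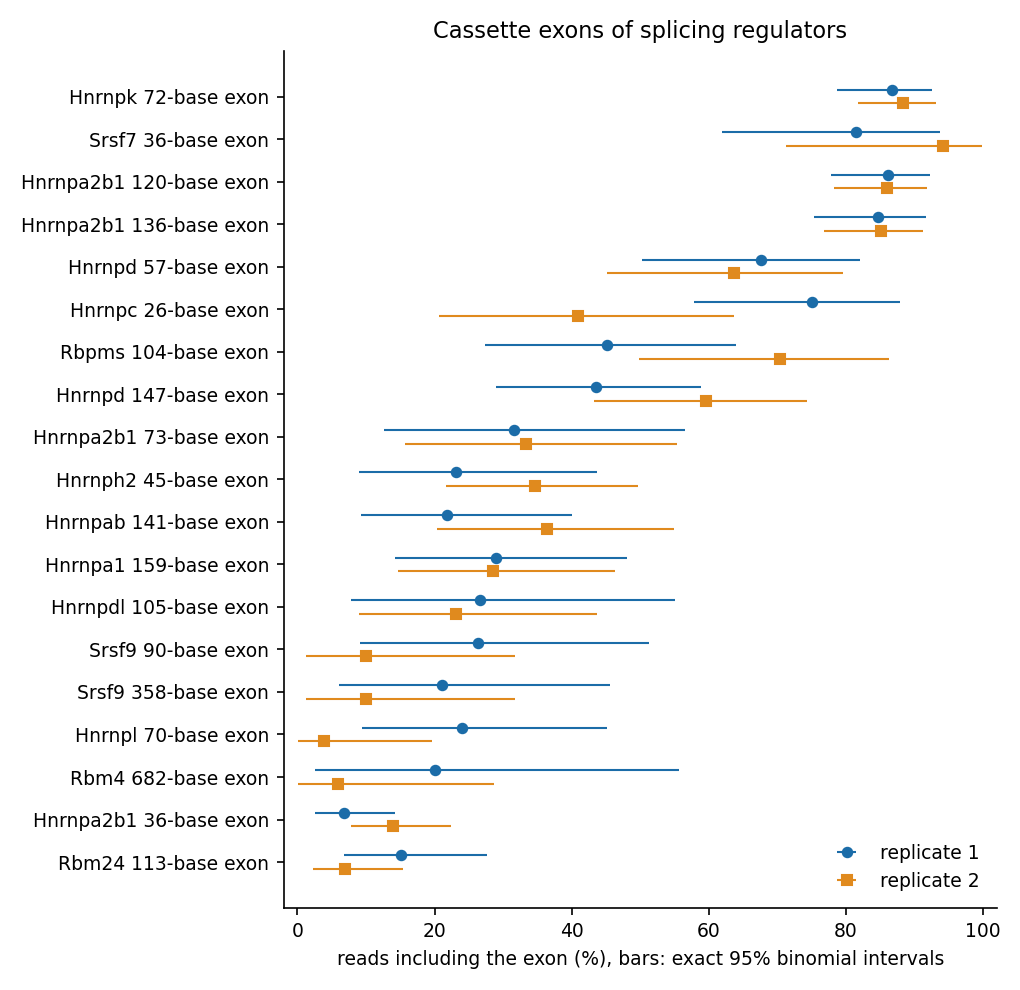
Inclusion (%) of each cassette exon with at least 10 informative reads in each library, with replicate 1 as circles above replicate 2 as squares and exact 95% binomial intervals as bars. Exons of Hnrnpk, Srsf7 and Hnrnpa2b1 lie at the upper end, those of Hnrnpd and Rbpms in the middle, and the 36-base exon of Hnrnpa2b1 and the 113-base exon of Rbm24 at the lower end. The 136-base and 73-base exons of Hnrnpa2b1 are splice-site variants of 1 exon, each shown without the reads of the other.

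In Hnrnpa2b1 the 36-base exon separates the B1 protein, which has it, from A2, which lacks it. It was included in 6 of 88 reads in replicate 1 (6.82%, 2.54 to 14.3) and 14 of 100 in replicate 2 (14.0%, 7.87 to 22.4), 10.6% together. Most reads of both libraries thus had the A2 start. The 120-base coding exon of the gene was included in 87 of 101 and 98 of 114 reads, 86.0% (80.7 to 90.4), in nearly equal shares. A 136-base exon of the untranslated 3′ part was included in 72 of 85 and 91 of 107 reads, 84.9% (79.0 to 89.6).

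Hnrnpd, also known as AUF1, is known for 4 proteins that differ by the 2 exons shown above, and each long read gave both choices at once. The 57-base exon was included in 25 of 37 reads in replicate 1 and 21 of 33 in replicate 2, 65.7% (53.4 to 76.7). The 147-base exon was included in 20 of 46 and 25 of 42 reads, 51.1% (40.2 to 61.9). Among the 70 reads that cover both, 14 of 37 and 14 of 33 held both exons, the p45 form (40.0%, 28.5 to 52.4). The 57-base exon alone, the p40 form, was in 11 and 7 reads (25.7%), neither exon, the p37 form, in 9 and 4 (18.6%), and the 147-base exon alone, the p42 form, in 3 and 8 (15.7%). All 4 forms were present in each library, p45 was the most frequent in both, and the order of the others did not hold between the libraries.

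Other hnRNPs showed exons at intermediate levels. The 159-base exon of Hnrnpa1, present in the 373-codon Hnrnpa1-201 and absent from the 320-codon Hnrnpa1-202, was included in 9 of 31 reads in replicate 1 and 10 of 35 in replicate 2, 28.8% (18.3 to 41.3). The 141-base exon of Hnrnpab, the CBF-A gene, was included in 7 of 32 and 12 of 33 reads, 29.2% (18.6 to 41.8). The 72-base exon of Hnrnpk was included in 91 of 105 and 121 of 137 reads, 87.6% (82.8 to 91.5). Among exons with at least 10 informative reads in each library, Hnrnpc had the widest gap, a 26-base untranslated exon included in 27 of 36 reads in replicate 1 and 9 of 22 in replicate 2 (Fisher's exact p = 0.0130, adjusted p = 1). A 70-base exon of Hnrnpl annotated in decay and retained-intron transcripts was included in 6 of 25 and 1 of 26 reads (Fisher's exact p = 0.0496, adjusted p = 1). A 45-base untranslated exon of Hnrnph2 was included in 6 of 26 and 17 of 49 reads, 30.7% (20.5 to 42.4).

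Among the remaining regulators, the 36-base exon of Srsf7, which codes for part of its arginine and serine rich domain, was included in 22 of 27 reads in replicate 1 and 16 of 17 in replicate 2, 86.4% (72.6 to 94.8). The 104-base exon of Rbpms, a smooth muscle and heart RNA-binding protein, was included in 14 of 31 and 19 of 27 reads, 56.9% (43.2 to 69.8). The 113-base exon of Rbm24, annotated in no coding transcript, was included in 8 of 53 and 5 of 72 reads, 10.4% (5.65 to 17.1). Less well covered exons that met the rule lay in Hnrnpdl, Hnrnpr, Mbnl1, Rbm10, Rbm33, Rbm4, Rbm7 and Srsf9, where pooled inclusion ranged between 11.1% for a 682-base exon of Rbm4 and 72.7% for a 74-base exon of Rbm10.

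A few exons known from the literature of these families were covered too thinly for the rule, and their reads are given as they stand. The 43-base exon of Rbfox2, the form typical of muscle, was included in 7 of 7 reads in replicate 1 and 4 of 5 in replicate 2, and the 93-base exon of its RNA-binding domain in 8 of 8 and 6 of 6. In Rbfox1 the 43-base exon was included in 1 of 1 and 2 of 4 reads. The 34-base exon of Ptbp2, whose skipping leads to decay outside neurons, was included in 8 of 8 and 1 of 1 reads, and the 34-base exon of Ptbp1 in 3 of 3 and 4 of 6. The 78-base exon of Ptbp1, which modulates its repressor activity, was included in 2 of 3 and 2 of 6 reads. These counts show that a form was present and set no ratio.

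Transcripts annotated as targets of nonsense-mediated decay took a larger share in splicing regulators than in heart genes at large. They made 2.54% (1.71 to 3.63) of the members' 1140 known-transcript reads in replicate 1 and 1.88% (1.18 to 2.83) of 1171 in replicate 2, beside 0.182% (0.169 to 0.195) and 0.193% (0.180 to 0.206) over all annotated genes. For retained-intron transcripts the order depended on which genes were counted. Over all known-transcript reads they made 1.40% (0.804 to 2.27) in replicate 1 and 2.65% (1.81 to 3.74) in replicate 2 in the members, beside 3.11% (3.05 to 3.16) and 3.23% (3.18 to 3.28) in all genes. Among genes with 20 to 200 known-transcript reads they made 1.99% of the members' reads and 1.22% of those of protein-coding genes, and 12 of 35 members (34.3%) had such a read, beside 466 of 3048 protein-coding genes (15.3%). In the same range 10 of 35 members had a read on a decay transcript (28.6%), beside 150 of 3048 protein-coding genes (4.92%), at a median of 42 and 45 reads. Among the genes used for the leading model, 63.2% of the members and 29.0% of all genes have an annotated decay transcript, so the sets differ in the annotation itself. Between the libraries the combined share differed in 0 of 31 members tested by Fisher's exact test, with 0 at an unadjusted p under 0.05, beside 0% of 3386 genes tested. The filter counts known-transcript reads only. Members with 0 reads of these kinds in both libraries, among them Hnrnpd, Hnrnpu and Qk, could not differ, and those with few could not be called. The test therefore says little about most members.

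**Figure D5:**
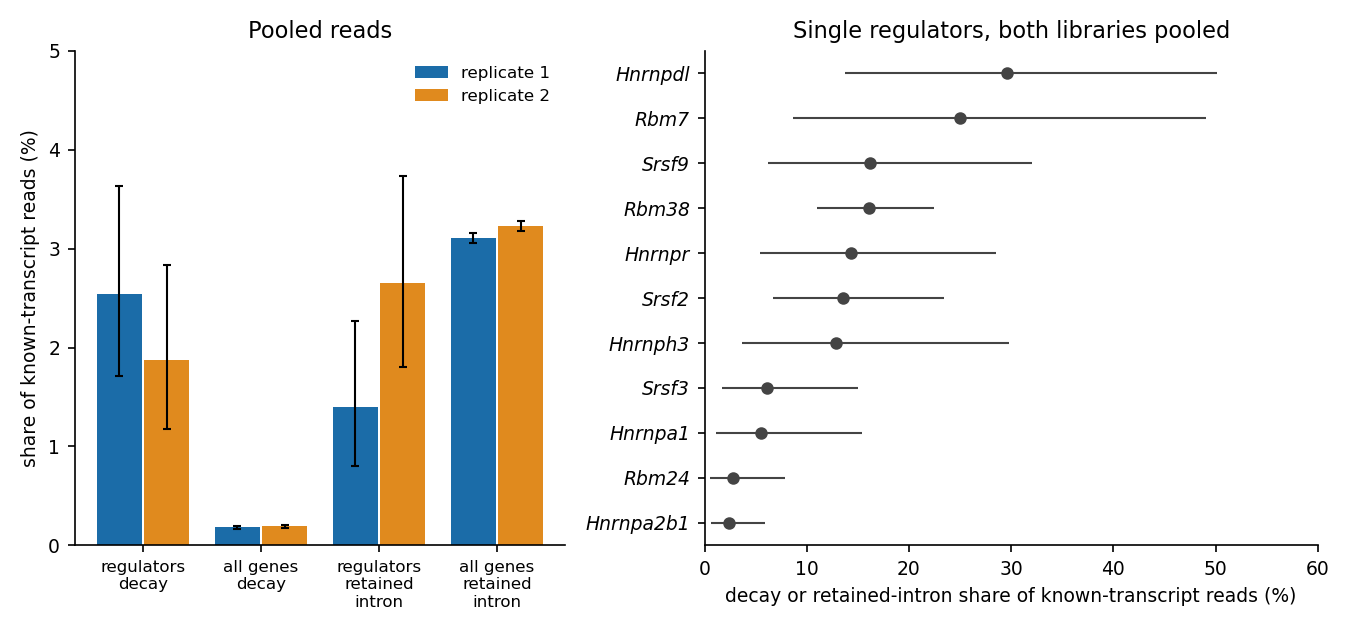
Left, share (%) of known-transcript reads on transcripts annotated for nonsense-mediated decay and on retained-intron transcripts, for splicing regulators and for all annotated genes, replicate 1 left of replicate 2, with exact 95% binomial intervals. Right, both kinds together for single regulators with at least 20 reads and at least 3 such reads, libraries pooled, where Hnrnpdl, Rbm7, Srsf9 and Rbm38 lead.

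Rbm38 had the most such reads. Its decay transcript Rbm38-206 had 9 reads in replicate 1 and 5 in replicate 2, the decay transcript Rbm38-205 had 1 and 0, and the retained-intron Rbm38-203 had 1 and 7 and Rbm38-202 0 and 5, so that 28 of 174 known-transcript reads were of these kinds (16.1%, 11.0 to 22.4). In Hnrnpdl, an hnRNP D relative known to be controlled through its own 3′ exons, it was 8 of 27 (29.6%, 13.8 to 50.2), of which 3 and 4 reads were of Hnrnpdl-201. In Rbm7, a subunit of the nuclear exosome targeting complex, it was 5 of 20 (25%), in Srsf9 6 of 37 (16.2%), in Hnrnpr 6 of 42 (14.3%) and in Hnrnph3 4 of 31 (12.9%). Srsf2, whose protein is known to promote decay of its own mRNA, had 3 of 40 reads in replicate 1 and 7 of 34 in replicate 2 (13.5%, 6.68 to 23.4), all of the retained-intron Srsf2-203. In Mbnl2 it was 1 of 6 known-transcript reads and in Rbm4 2 of 26. Across members, 23 had at least 1 such read and 12 had them in both libraries.

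Exons of SR protein genes that are annotated in decay or processed transcripts and in no coding one, where at least 10 reads cover them, were included in a minority of reads. Srsf9 had the highest shares among these: its 358-base exon was included in 4 of 19 reads in replicate 1 and 2 of 20 in replicate 2, 15.4% (5.86 to 30.5), and its 90-base exon in 5 of 19 and 2 of 20, 17.9% (7.54 to 33.5). The 456-base exon of Srsf3 was included in 3 of 44 reads in replicate 1 and 1 of 21 in replicate 2, 6.15% (1.70 to 15.0). The 268-base exon of Srsf6 was included in 0 of 28 and 2 of 30 reads (3.45%, 0.420 to 11.9), and the 460-base exon of Srsf7 in 0 of 27 and 0 of 13. The 397-base exon of Tra2b was skipped in the only 4 reads that cover it. In Rbm39 the 73-base and 72-base exons of decay and retained-intron transcripts were included in 2 of 58 and 5 of 69, and in 4 of 58 and 2 of 71 reads, and in Rbm3 the 271-base exon in 0 of 9 and 0 of 13. These shares describe RNA at steady state, after any decay.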

How the data were processed

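Per the file headers the deposited values are raw counts, 1 for each long read assigned to a transcript model, and the authors annotated and counted each library on its own. Reads were aligned to mm10 with the GENCODE M21 annotation, per the notes deposited with each library, and the deposited models name TALON. The sources used here name no aligner, version or filter. Models at 0 reads are not listed.

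New models were matched between libraries by their chain of introns, or for 1 exon by at least 50% reciprocal overlap. CPM, TMM factors (0.986 and 1.014, edgeR 4.0.16 in R 4.3.3, genes with at least 10 reads), exact binomial and Fisher's exact tests (scipy 1.17.1, Python 3.11.15, Benjamini-Hochberg over all features, called at 0.05) were computed here and tested on simulated data. Log2 ratios add 0.5 reads per library. The depth of each member sets the width of its intervals. DESeq2 1.42.0 served an alternative. Leading models, cassette exons and junctions leave out the genomic class. Skipping means an intron that joins the splice sites used with the exon in the reads, and for exons outside the inclusion rule also those of annotated transcripts.

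The members and lists were chosen with earlier results of these data known. The rule named the 25 most abundant members, called members, a list of well-known regulators, members without reads, up to 10 members by decay and retained-intron share among those with at least 20 reads, cassette exons as defined above, and up to 10 new-splice models. The Qk and Hnrnpk junctions, the Qk ends, the Hnrnpd pairs and the thinly covered exons were chosen after their values were seen, as was the range of 20 to 200 reads. Non-coding genes with matching symbols had 0 reads. Sequences come from the GENCODE M21 transcripts.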

Additional observations from a re-analysis of the deposited data

How the results depend on the processing

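The summed level of the splicing regulators was 2711 CPM with known transcripts only and 3860 CPM without the genomic class, beside 4013 CPM, and 3990 and 4036 CPM without replicate 1 and without replicate 2. With at least 50 reads 1 of 27 members tested, Srsf3, was called between the libraries, because the adjustment ran over fewer genes. In that setting 161 genes were called in all. The known share of the members' reads was 47.7% over models with at least 2 reads, 57.6% as a mean over genes, 54.6% without Hnrnpa2b1, 50.4% without Hnrnpk, Qk and Mbnl2, and 64.9% without all 4, beside 44.5%; the last 3 alternatives were chosen after seeing the data. With the genomic class kept 1 of 43 members tested, Rbfox2, differed in its leading model, beside 122 genes called in all. The number of genes tested is not given here for this setting or for that of at least 50 reads. Neither count of members is therefore set against a background share. Rbfox2 had 0 of 21 reads in replicate 1 and 13 of 19 in replicate 2 on a single-exon model of 630 bases. In replicate 1, 12 reads lay on another single-exon model with the same start but a listed length of 2 bases. With the rule of at least 50% reciprocal overlap these were counted as separate models. The unproductive share was 1.88% over all reads, beside 4.24% over known-transcript reads. Cassette exons that met the rule numbered 16 without replicate 1 and 18 without replicate 2, beside 26, since fewer reads reach its minimums. The other 27 recomputed values of these results stayed within their spread or on their side of the threshold. Of those for single genes and exons 96 did, 8 moved and Srsf3 passed the threshold in the 1 case above. These counts include values without 1 library. By construction each library lies within the SD of a mean of 2, so such values of a mean could not move. For single exons they draw on part of the same reads. With 2 libraries, leaving out 1 leaves no test between them. No paired analysis was possible because the series has 1 group, so no groups share replicate numbers. Depth is a limit: most members had under 50 reads, so a share of their forms carries a wide interval. A difference between the libraries below about the width of that interval was not detectable. Larger ones could also go uncalled after adjustment over all features, as that of Srsf3 did in the main setting.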
